A study of Homo sapiens with 8 samples.

Results

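The peaks described here are strong dnTCF1EWT binding regions in which neither DNA motif of the protein was found. They were chosen by a rule on the annotated list of dnTCF1EWT 2 h ChIP-seq peaks: a MACS peak score of 100 or more, no Wnt response element (WRE) and no Helper site. Of 5585 peaks in that list, 926 had a score of 100 or more, and 339 of these (called motif-less strong peaks below) held neither motif. A WRE without a Helper site was counted in 405 of the other strong peaks, a Helper site without a WRE in 107, and both in 75. The 6 lists of the series hold 23433 peaks.

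dnTCF1E is a FLAG-tagged dominant negative TCF-1 that was expressed from a doxycycline-inducible construct in DLD-1 cells, a human colon cancer cell line. The dnTCF1EWT line carries the protein with an intact C-clamp, and the dnTCF1Emut line carries a protein with substitutions that abolish DNA binding by the C-clamp. Both lines were sampled without induction (0 h) and after 2 h and 9 h in 1 µg/mL doxycycline, the bound DNA was recovered with anti-FLAG beads, and each line also has an input library with no peak list. Each condition gave 1 peak list. The lists were taken as called on pooled libraries, from the description of the methods and the list headers, while the labels speak of a first replicate with runs a and b. Each protein has its own cell line and its own libraries. A difference between the proteins therefore cannot be told apart from a difference between lines or libraries. The depth of the libraries is not given by the lists, and the peak scores are not scaled for depth.

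TCF/LEF proteins are the transcription factors at the end of the Wnt pathway. Their HMG box recognises the WRE, and the E isoforms carry a second domain, the C-clamp, that recognises the GC-rich Helper site. β-catenin binds the N terminus of TCFs and activates target genes. A dominant negative TCF lacks that N terminus, so it occupies the DNA without recruiting β-catenin. TCFs can also reach DNA at sites that differ from the consensus or through partner proteins, so a bound region need not hold a consensus site.

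The motif counts are those of the lists. A WRE is CTTTG followed by A or T, by A or T again, and by C or G. A Helper site is ACCGCC or GCCGCC, and a short Helper site is ACCG or GCCG. All 3 were searched on both strands, and every Helper site contains a short one. A short Helper site was not part of the rule and could be present. The lists give no sequence for the peaks, so promoters are shown in their place, for the motif-less strong peaks that covered at least 200 bases of the 250 bases before a transcription start site (TSS). 10 of these peaks reached into that window, 7 of them had exactly 1 RefSeq promoter under the gene symbol, and 4 met the minimum. They are examples from promoters, where only 11 of the 339 peaks were annotated, and they do not stand for the class. The stretch at KLRC3 is AT-rich, and the other 3 hold several short Helper sites. The sequences are RefSeq's on GRCh38.p14, 5′ to 3′ on the strand of the gene. They were matched by symbol and distance to the TSS, because the peaks are placed on hg19. Capitals mark short Helper sites and the WRE core CTTTG on either strand.
KLRC3: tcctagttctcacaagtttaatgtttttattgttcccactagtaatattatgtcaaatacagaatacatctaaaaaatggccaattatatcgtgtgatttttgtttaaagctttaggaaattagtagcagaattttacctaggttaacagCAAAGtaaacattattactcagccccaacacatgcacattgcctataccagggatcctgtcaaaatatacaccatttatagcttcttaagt
CYB5R4: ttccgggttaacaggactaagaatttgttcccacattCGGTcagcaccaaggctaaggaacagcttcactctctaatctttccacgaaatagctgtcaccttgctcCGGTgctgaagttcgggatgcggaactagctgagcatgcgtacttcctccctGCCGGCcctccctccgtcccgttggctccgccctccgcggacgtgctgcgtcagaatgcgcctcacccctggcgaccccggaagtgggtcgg
LEMD3: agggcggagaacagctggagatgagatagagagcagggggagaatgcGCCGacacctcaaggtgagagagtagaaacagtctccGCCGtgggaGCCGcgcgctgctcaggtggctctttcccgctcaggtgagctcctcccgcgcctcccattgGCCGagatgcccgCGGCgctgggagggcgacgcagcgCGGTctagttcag
HOXA9: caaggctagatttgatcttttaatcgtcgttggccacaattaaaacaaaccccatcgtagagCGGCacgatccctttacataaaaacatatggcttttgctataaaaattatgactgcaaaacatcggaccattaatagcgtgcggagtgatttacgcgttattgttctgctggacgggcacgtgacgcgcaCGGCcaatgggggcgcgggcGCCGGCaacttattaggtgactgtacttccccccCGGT
The KLRC3 stretch is chr12:10420596-10420836, minus strand, 241 bases with no short Helper site and 1 WRE core. The CYB5R4 stretch is chr6:83859439-83859688, plus strand, 250 bases with 4 matches to the short Helper site. The LEMD3 stretch is chr12:65169333-65169536, plus strand, 204 bases with 6 matches, and the HOXA9 stretch is chr7:27165538-27165787, minus strand, 250 bases with 5. None of the 4 held a full WRE or Helper site. A pair of matches that overlap on opposite strands counts as 2 matches here, while the lists merged opposite-strand matches within 8 bp; the list gave 3 short Helper sites for the whole CYB5R4 peak, 8 for LEMD3, 4 for HOXA9 and 1 for KLRC3. Among 35116 RefSeq promoters cut to the same 250 bases, 74.2% held a short Helper site, 35.9% a Helper site, 42.1% a WRE core and 5.56% a WRE.

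The scores that chose the peaks ran from 100.08 to 3100.00, with a median of 162 and quartiles of 124 and 246. The lowest 2 inside the limit lay near KCNMA1 (100.08) and NKD2 (100.55), and the highest motif-less peaks below it near RNF144B (99.98) and MFAP5 (99.88). Motif-less peaks made up 153 of the 352 peaks (43.5%) with scores from 100 to 150, 139 of 358 (38.8%) from 150 to 300, 24 of 123 (19.5%) from 300 to 500 and 23 of 93 (24.7%) from 500 upwards. They were thus found in every score band. The highest, at ranks 2 and 3 of the whole list, were the X and Y copies of the same locus near ASMT. Both copies hold exactly 3100.00, and whether this round value is a measured score was not examined. The next, at rank 4, scored 2133.84.

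The highest scores did not share 1 type of location. The peak with the highest score was intergenic, 149268 bp downstream of the TSS of ASMT, which encodes the last enzyme of melatonin synthesis. ASMT lies in the pseudoautosomal region, and the list holds the peak on both X (chrX:1882348-1884240) and Y (chrY:1832348-1834240), with 3100.00 for each copy, 1893 bp and 54 short Helper sites. The overlapping peaks at 9 h of dnTCF1EWT scored 439.75 on X and 932.15 on Y, and at 2 h of dnTCF1Emut 458.84 and 443.42. Reads from such copies cannot be assigned to 1 of them, and the X and Y values are 1 locus. The peak nearest LINC00565, a non-coding RNA gene, lay in a CpG island (chr13:114616422-114617450) and scored 2133.84 at 2 h and 985.79 at 9 h, with no overlapping dnTCF1Emut peak. The peak near DTYMK, thymidylate kinase (chr2:242602046-242602587), lay in an AluSx element and scored 1079.06, against 534.90 at 9 h and 246.89 with dnTCF1Emut at 2 h.

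Further down, the peak 15787 bp upstream of MYL10, a myosin light chain gene, scored 824.88 at 2 h and 124.63 at 9 h of dnTCF1EWT and overlapped no dnTCF1Emut peak. In intron 1 of SH3BP4, whose product acts in receptor trafficking, the scores were 809.33 at 2 h and 340.75 at 9 h of dnTCF1EWT, and 166.03 at 2 h and 52.30 at 9 h of dnTCF1Emut. The peak near NOSIP, in a Tigger9b DNA transposon, scored 771.84 and was otherwise listed only with dnTCF1Emut at 2 h, at 70.85. The LOC143188 peak scored 761.67 and 202.02 in the dnTCF1EWT lists and overlapped no dnTCF1Emut peak. The peak near ARHGAP32 lay in a MER11B element and scored 664.90, 167.16 at 9 h and 188.52 with dnTCF1Emut at 2 h. That near LOC728640 scored 607.97, 484.19 and 119.78 in the same lists.

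One of the 10 went the other way. The peak 37868 bp upstream of SYK, a tyrosine kinase gene (chr9:93525930-93526359, 430 bp), held no short Helper site and scored 617.06 at 2 h of dnTCF1EWT. The overlapping peaks scored 2055.92 at 9 h of dnTCF1EWT, 2168.71 at 2 h of dnTCF1Emut and 974.95 at 9 h of dnTCF1Emut, so SYK was lower in the dnTCF1EWT 2 h list than in each other induced list. None of these 10 overlapped an uninduced peak.

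**Figure D1:**
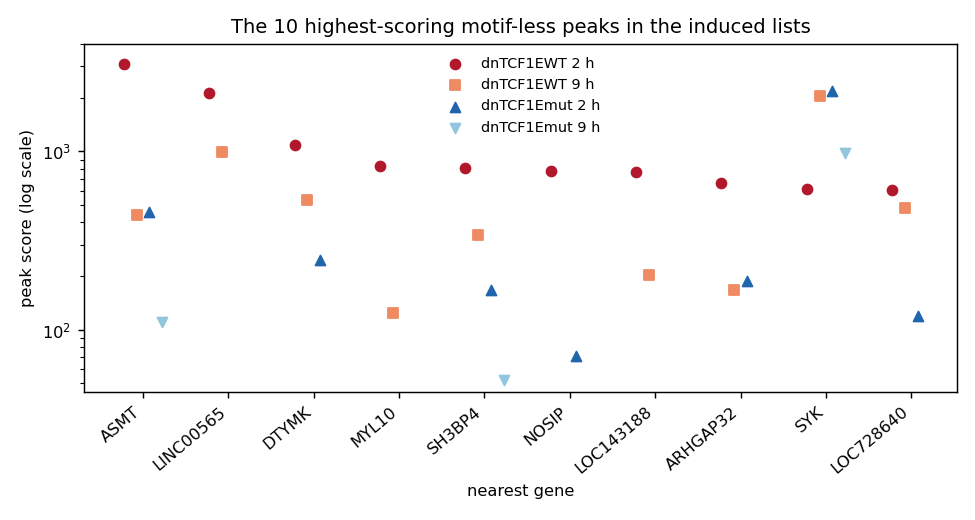
Peak scores (log axis) of the 10 motif-less strong peaks with the highest dnTCF1EWT 2 h score, by nearest gene, in the 4 induced lists. A missing symbol means that the list holds no overlapping peak, and the X copy is shown for ASMT. The dnTCF1EWT 2 h score is the highest for 9 of the 10, as the choice of the peaks favours, and SYK (617.06) lies below its other 3 scores.

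Whether a strong peak was found again was asked by overlap, by at least 1 base, with the peaks of each other list. Of the 339 motif-less strong peaks, 144 (42.5%, 95% Wilson interval 37.3 to 47.8) overlapped a peak at 9 h of dnTCF1EWT, where the share over all 926 strong peaks was 48.7%. At 2 h of dnTCF1Emut, 114 did (33.6%, 28.8 to 38.8), against 38.7% of all strong peaks. At 9 h of dnTCF1Emut, 24 did (7.08%, 4.80 to 10.3), against 8.21%. Only 8 (2.36%, 1.20 to 4.59) overlapped a peak of either uninduced list, against 1.51%. The lists differ widely in size, so these shares cannot be compared between lists as binding. They hold 12996 peaks at 9 h of dnTCF1EWT, 1883 at 2 h and 354 at 9 h of dnTCF1Emut. The uninduced lists hold 1907 peaks for dnTCF1EWT and 708 for dnTCF1Emut. The intervals of the shares cover counting error only, and peaks of 1 list are not replicate experiments.

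Each list held peaks that the other did not. Of these 2 lists, the dnTCF1EWT 9 h list alone held 100 of the motif-less strong peaks (29.5%, against 29.7% of all 926 strong peaks) and the dnTCF1Emut 2 h list alone held 70 (20.6%, against 19.7%). Both held 44 (13.0%, against 19.0%), and 125 (36.9%, against 31.6%) were in neither. In no other list at all were 122 (36.0%, against 31.2%), and 13 (3.83%, against 5.51%) were in all 3 other induced lists. Peaks that were not recovered had the lower scores: the median dnTCF1EWT 2 h score was 207 for those found at 9 h and 142 for those not, and 205 and 143 for those found and not found with dnTCF1Emut at 2 h. From 500 upwards, 21 of 23 were found at 9 h of dnTCF1EWT and 14 of 23 at 2 h of dnTCF1Emut.

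Compared with the strong peaks of the other classes, the motif-less ones lay between WRE peaks and Helper peaks in the mutant list. dnTCF1Emut at 2 h recovered 33.6% of them, 49.9% of the 405 peaks with a WRE and no Helper site, and 18.7% of the 107 with a Helper site and no WRE. The odds of recovery relative to WRE peaks were 0.510 (95% interval 0.374 to 0.693, Fisher's exact test, two-sided, adjusted p = 5.94e-05), and relative to Helper peaks 2.20 (1.26 to 3.98, adjusted p = 0.0133). Within strata of 5% GC the first odds ratio was 0.566 (exact stratified test, adjusted p = 0.00912) and the second 0.872 (adjusted p = 0.860), so the difference from Helper peaks was lost and turned. Against WRE peaks the odds ratio was 0.661 with a score limit of 150 (exact test, adjusted p = 0.175) and 0.242 with a limit of 67 (adjusted p = 5.90e-32). Against Helper peaks it was 1.33 with a limit of 67 (exact test, adjusted p = 0.344). The p-values were adjusted by Benjamini-Hochberg over the 15 comparisons with the other classes.

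At 9 h of dnTCF1EWT the order was another. The odds ratio against WRE peaks, of which 48.1% were recovered, was 0.796 (0.588 to 1.07, adjusted p = 0.209 in Fisher's exact test), and 0.467 (adjusted p = 6.81e-11) with a score limit of 67. Against Helper peaks, of which 61.7% were recovered, it was 0.460 (0.286 to 0.732, exact test, adjusted p = 0.00285), but 0.588 in strata of score (adjusted p = 0.0903) 0.659 in strata of GC (adjusted p = 0.319) and 0.647 with a score limit of 150 (adjusted p = 0.357). Recovery at 9 h of dnTCF1Emut and in the uninduced lists differed from neither class beyond the threshold, with odds ratios of 0.659 and 1.93 against WRE peaks and 1.96 and 2.56 against Helper peaks (adjusted p from 0.204 to 0.693 in Fisher's exact test). With a score limit of 67, the odds ratio against WRE peaks at 9 h of dnTCF1Emut was 0.357 (exact test, adjusted p = 2.87e-05).

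**Figure D2:**
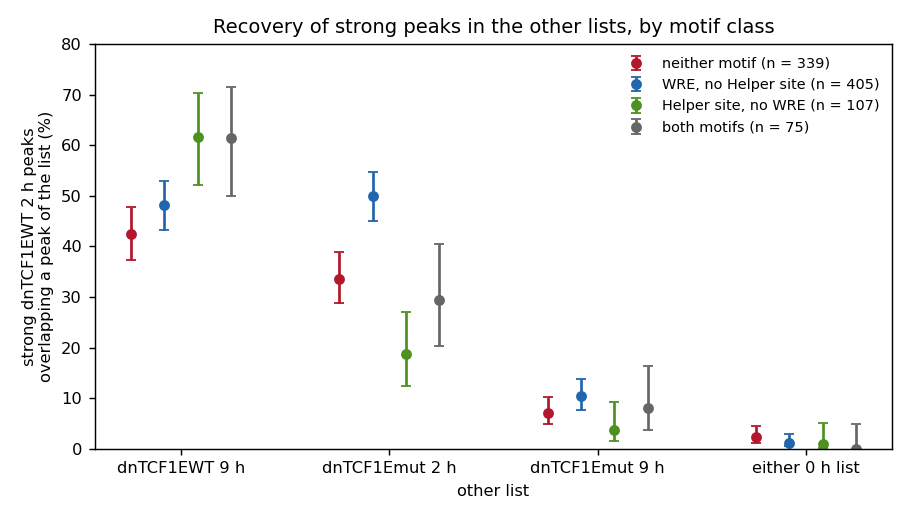
Percent of strong dnTCF1EWT 2 h peaks of each motif class (y axis) that overlap a peak of another list (x axis), with 95% Wilson intervals. Peaks with neither motif lie at 42.5% in the dnTCF1EWT 9 h list, the lowest of the 4 classes, and at 33.6% in the dnTCF1Emut 2 h list, between WRE peaks (49.9%) and Helper peaks (18.7%).

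The peaks of the other lists at these places also lacked the motifs as a rule. Of the 144 overlapping dnTCF1EWT 9 h peaks, 140 held neither a WRE nor a Helper site, with a median length of 326 bp beside 446.5 bp for the 2 h peaks. Of the 114 overlapping dnTCF1Emut 2 h peaks, 106 held neither, 6 held a WRE and 2 a Helper site, with a median length of 535 bp beside 447 bp. Of the 24 at 9 h of dnTCF1Emut, 23 held neither. These peaks share bases with the dnTCF1EWT 2 h peaks, in which the rule allows neither motif, so the low counts are largely set by that choice.

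Where a peak was listed again, its score was usually lower than at 2 h of dnTCF1EWT, a direction that a choice on the 2 h score favours. On the log2 scale, the 2 h score divided by that at 9 h of dnTCF1EWT had a median of 1.14 (quartiles 0.63 and 1.69, n = 144), and 1.15 for the 195 recovered WRE peaks. Against dnTCF1Emut at 2 h it was 0.82 (0.19 and 1.37, n = 114), and 0.90 for the 202 WRE peaks. The other score was the higher one for 14 of the 144 and for 23 of the 114. Among peaks listed with both proteins at both times, RANBP10, in intron 2 (chr16:67816568-67816881), had 271.66 at 2 h and 874.16 at 9 h of dnTCF1EWT, with 155.59 and 75.45 for dnTCF1Emut.

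**Figure D3:**
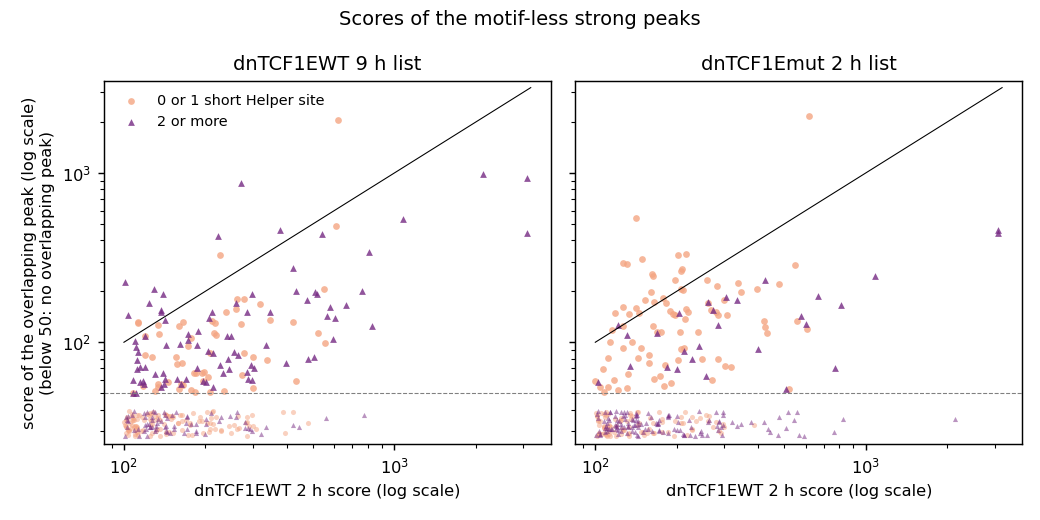
Score of each of the 339 motif-less strong peaks at 2 h of dnTCF1EWT (x, log axis) and of the overlapping peak in the dnTCF1EWT 9 h list (left) or the dnTCF1Emut 2 h list (right; y, log axis). Points under the dashed line at 50 have no overlapping peak and are spread at random there, the diagonal marks equal scores, and triangles mark 2 or more short Helper sites. The point farthest above both diagonals is SYK (2055.92 and 2168.71), and circles make up 86 of the 114 recovered peaks on the right.

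Most motif-less strong peaks held a short Helper site. So did most of all 926 strong peaks, whose count had quartiles of 1 and 3, beside 0 and 3 for the motif-less ones. 253 of 339 (74.6%, 69.7 to 79.0) had at least 1, with a median of 1 and a maximum of 54, against 271 of the 405 WRE peaks (66.9%). The odds ratio was 1.45 (adjusted p = 0.0598 in Fisher's exact test), 1.61 in strata of peak length (adjusted p = 0.0154), and 0.842 for all peaks with a score of 67 or more (adjusted p = 0.175), a reversed direction. Split by this count, 86 had no short Helper site, 93 had 1, 92 had 2 to 3 and 68 had 4 or more.

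The 2 lists changed in opposite directions over these 4 groups. The dnTCF1Emut 2 h list held 42 of 86 (48.8%, 38.6 to 59.2) of the peaks with no short Helper site, 44 of 93 (47.3%, 37.5 to 57.4) with 1, 19 of 92 (20.7%, 13.6 to 30.02) with 2 to 3 and 9 of 68 (13.2%, 7.12 to 23.3) with 4 or more. The dnTCF1EWT 9 h list held 31 (36.0%, 26.7 to 46.6), 27 (29.0%, 20.8 to 38.9), 44 (47.8%, 37.9 to 57.9) and 42 (61.8%, 49.9 to 72.4) of the same groups. The step in both lists lay between 1 and 2 sites, and the groups with 0 and 1 site differed by less than their intervals.

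Having at least 1 short Helper site was compared with having none, a comparison added after the data had been seen. In the dnTCF1Emut 2 h list the odds ratio of recovery was 0.418 (0.245 to 0.713, two-sided Fisher's exact test, p = 0.00118 adjusted over 4 comparisons by short Helper count), and in the dnTCF1EWT 9 h list 1.43 (0.841 to 2.46, adjusted p = 0.168). With a score limit of 67 these became 0.738 (exact test, adjusted p = 0.0894) and 1.81 (adjusted p = 0.000421). A split at 2 sites follows the step just described, so it is given as a description with no p. With 2 or more sites 28 of 160 (17.5%) were in the dnTCF1Emut 2 h list and with 0 or 1 site 86 of 179 (48.0%). In the dnTCF1EWT 9 h list these were 86 of 160 (53.8%) and 58 of 179 (32.4%).

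**Figure D4:**
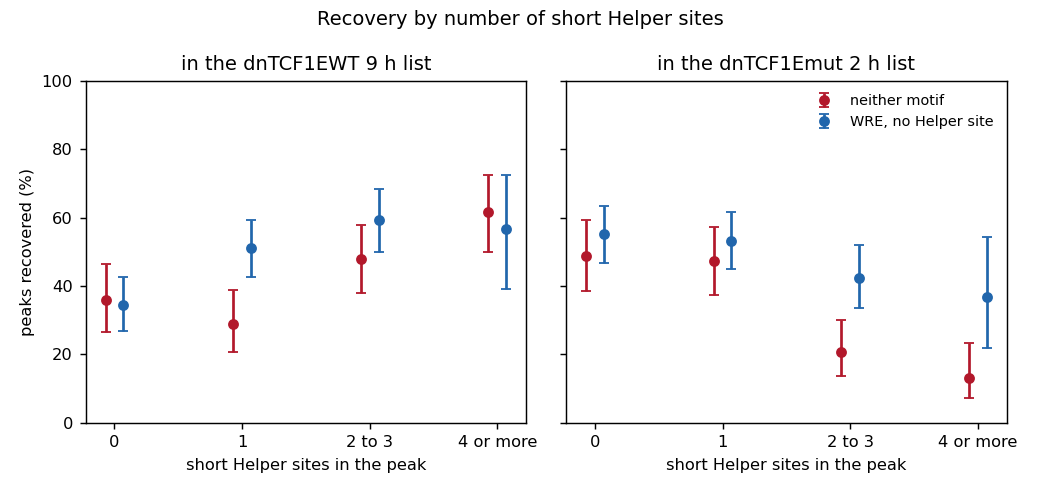
Percent of strong dnTCF1EWT 2 h peaks recovered in the dnTCF1EWT 9 h list (left) and the dnTCF1Emut 2 h list (right), by how many short Helper sites the peak held, with 95% Wilson intervals. For peaks with neither motif (red) the share goes from 36.0% to 61.8% on the left and from 48.8% to 13.2% on the right, and for WRE peaks (blue) from 34.3% to 56.7% and from 55.2% to 36.7%.

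GC content moved with the count of short Helper sites: its median was 40.8%, 41.9%, 45.7% and 50.9% in the 4 groups, and the median length went from 393.5 to 466 bp. The lists also differ in GC content as a whole, with a median over all peaks of 51.3% at 9 h of dnTCF1EWT, 37.1% at 2 h and 35.6% at 9 h of dnTCF1Emut, and 6.32% for dnTCF1Emut at 0 h. The cause of that last value was not examined. Of the 8 peaks that overlapped an uninduced list, 4 overlapped that one, and of these NPAS4 also overlapped the uninduced dnTCF1EWT list. By GC alone, dnTCF1Emut at 2 h recovered 58 of the 86 motif-less strong peaks below 40% GC (67.4%, 57.0 to 76.4), 38 of 99 from 40% to 45% (38.4%, 29.4 to 48.2), 12 of 81 from 45% to 50% (14.8%, 8.68 to 24.1) and 6 of 73 from 50% upwards (8.22%, 3.82 to 16.8). The dnTCF1EWT 9 h list went the other way, with 29.1%, 34.3%, 48.1% and 63.0%. WRE peaks also fell over these bands at 2 h of dnTCF1Emut, with 63.1%, 56.8%, 37.5% and 18.4%. At 9 h of dnTCF1EWT they did not rise steadily, with 33.6%, 58.9%, 53.4% and 42.9%.

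Within strata of 5% GC, the comparison of at least 1 short Helper site with none was lost in the dnTCF1Emut 2 h list, with an odds ratio of 0.920 (0.497 to 1.72, exact stratified test, adjusted p = 0.882). In the dnTCF1EWT 9 h list it turned to 0.915 (0.504 to 1.67, exact stratified test, adjusted p = 0.882). For the split at 2 sites, again as a description, the odds ratios in those strata were 0.470 (0.252 to 0.870) and 1.63 (0.961 to 2.77). Below 40% GC, dnTCF1Emut recovered 48 of 66 peaks with 0 or 1 site (72.7%) and 10 of 20 with more. From 40% to 45% it recovered 31 of 71 (43.7%) and 7 of 28, and from 45% to 50% 7 of 29 (24.1%) and 5 of 52 (9.62%). From 50% upwards the order did not hold, with 0 of 13, which allows a share of up to 23.1%, and 6 of 60 (10.0%).

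**Figure D5:**
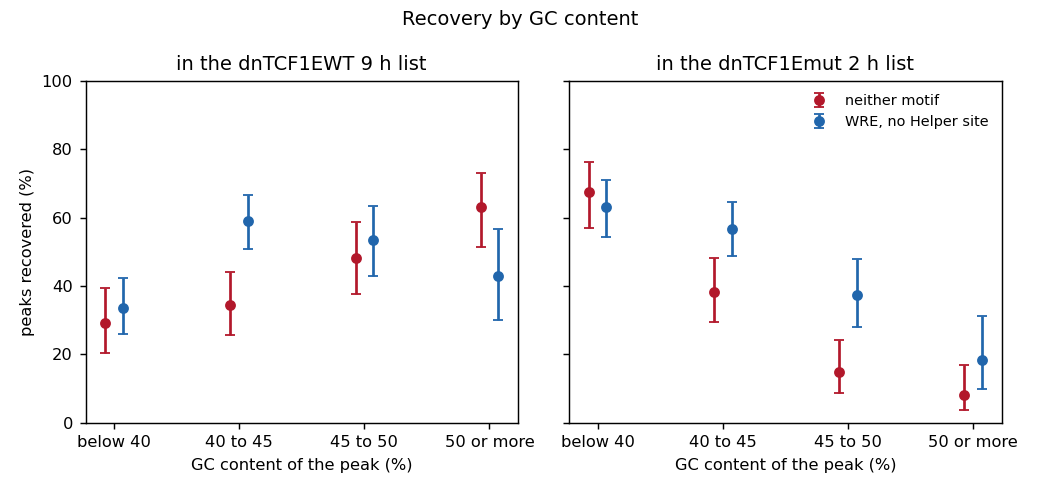
Percent of strong dnTCF1EWT 2 h peaks recovered in the dnTCF1EWT 9 h list (left) and the dnTCF1Emut 2 h list (right), by the GC content of the peak, with 95% Wilson intervals. For peaks with neither motif (red) the share goes from 29.1% to 63.0% on the left and from 67.4% to 8.22% on the right. For WRE peaks (blue) it goes from 33.6% over 58.9% and 53.4% to 42.9% on the left and from 63.1% to 18.4% on the right.

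The peaks with the most short Helper sites, after ASMT, were those near IFRD1, MUC2 and GRAP. The IFRD1 peak (chr7:112031388-112032295), in a CpG island 31358 bp upstream of this transcriptional co-regulator gene, held 35 and scored 377.38 at 2 h and 459.52 at 9 h, with no overlapping dnTCF1Emut peak. The MUC2 peak lay in exon 30 of the gene of the gel-forming mucin of goblet cells (chr11:1092720-1093555), held 21 and scored 161.05 at 2 h and 97.01 at 9 h. It also overlapped an uninduced dnTCF1EWT peak of 133.84. The GRAP peak, in an AluSx element, held 21, scored 143.97 and was in no other list.

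By position the motif-less strong peaks were mostly distal, and so were the 926 strong peaks as a whole. The median distance to the nearest TSS was 37.2 kb (quartiles 14.1 and 95.6 kb), against 39.1 kb for all strong peaks. Intergenic peaks numbered 174 (51.3%, against 49.8% of all strong peaks) and peaks in introns 141 (41.6%, against 42.3%). Exons held 6, transcript ends 5 and promoters 11, against 12, 11 and 37 of the 926. Among WRE peaks 53.6% were intergenic, a difference that did not pass the threshold (odds ratio 0.914, 95% interval 0.677 to 1.23). The peaks had 325 nearest genes, 14 of which had 2 peaks.

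Peaks within 2 kb of a TSS numbered 24 (7.08%, 4.80 to 10.3), against 89 of all 926 strong peaks (9.61%). By class there were 16 of 405 WRE peaks (odds ratio 1.85, adjusted p = 0.142) and 30 of 107 Helper peaks (odds ratio 0.196, adjusted p = 1.23e-06, Fisher's exact test). In strata of GC the latter odds ratio was 0.391 (exact stratified test, adjusted p = 0.0705). All but 1 of the 24 held a short Helper site, with a median of 3, against 74.6% of the 339 motif-less strong peaks. At 9 h of dnTCF1EWT 14 were found (58.3%, against 42.5% of the 339) and at 2 h of dnTCF1Emut 7 (29.2%, against 33.6%).

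The strongest of these lay in exon 2 of TLE4 (chr9:82188386-82188876), a Groucho-family co-repressor that binds TCFs. It scored 294.76 at 2 h and 73.22 at 9 h of dnTCF1EWT and overlapped no dnTCF1Emut peak. The ZNF114 peak had the same pattern, at 225.99 and 73.01. At DUSP16, a MAP kinase phosphatase gene, the peak in intron 1 scored 214.22 and was listed elsewhere only with dnTCF1Emut at 2 h, at 137.56. The peaks at CFLAR, which encodes an inhibitor of caspase-8, and at SPTBN1, a beta-spectrin gene, scored 210.72 and 206.89 and were in no other list.

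The KLRC genes, a cluster of natural killer cell lectin receptors, had 3 of the peaks. KLRC3, whose AT-rich promoter is shown above, scored 278.60 at 2 h and 86.53 at 9 h of dnTCF1EWT, and 151.92 and 58.66 with dnTCF1Emut. KLRC4 scored 205.49, 62.64, 115.71 and 83.31 in the same order, and KLRC2 204.38, 89.30, 147.91 and 51.56. The 3 peaks lie at related genes of this cluster, and reads may be shared among them, which was not measured. All 3 are in the counts of 24, 14 and 7 above. With copies of 1 locus counted once, 22 of 331 peaks lay within 2 kb of a TSS, and no comparison with the other classes changed its side of the threshold. Of the other promoters shown above, HOXA9, a homeobox gene, scored 128.83 at 2 h and 205.44 at 9 h of dnTCF1EWT, and LEMD3, an inner nuclear membrane protein gene, 130.48 and 64.83, neither with a dnTCF1Emut peak. CYB5R4, a reductase gene, scored 169.51 at 2 h and 114.10 with dnTCF1Emut at 2 h, and 121.07 without induction of dnTCF1Emut.

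The 8 peaks that overlapped an uninduced peak were led by NPAS4, SIGLEC16, MIR7-3HG, CYB5R4 and MUC2. NPAS4, an activity-dependent transcription factor gene, had a peak in a CpG island with 12 short Helper sites (chr11:66189057-66189501) and was the only one found in all 5 other lists. It scored 284.33 at 2 h and 150.65 at 9 h of dnTCF1EWT and 120.59 before induction, and 126.81, 83.71 and 189.79 with dnTCF1Emut at 2 h, 9 h and 0 h. SIGLEC16 scored 256.12 at 2 h and 173.50 for uninduced dnTCF1Emut, and MIR7-3HG 172.38 and 89.76. These values are presence before induction of the FLAG-tagged protein. Without such peaks, each comparison with the other classes that could be rerun kept its direction and its side of the threshold, which leaves out the comparisons of uninduced recovery itself.

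Repeats were annotated at 90 of the 339 peaks (26.5%, 22.1 to 31.5), 101 of the 405 WRE peaks (24.9%, odds ratio 1.09, adjusted p = 0.693 in Fisher's exact test) and 16 of the 107 Helper peaks (14.95%, odds ratio 2.05, adjusted p = 0.0404, Fisher's exact test). Against WRE peaks the odds ratio was 3.24 with a score limit of 67 (exact test, adjusted p = 2.16e-26) and turned to 0.789 with a limit of 150 (adjusted p = 0.412). With strata of score or GC the odds ratio against Helper peaks was 1.89 or 1.51, both with adjusted p above the threshold (0.0947 and 0.382), and repeat content rests on the mapping of reads to copies. SINEs made up 29 (8.55%, against 5.29% of all 926 strong peaks) and LTR elements 28 (8.26%, against 9.83%). LINEs made up 22 (6.49%, against 6.48%) and DNA transposons 9 (2.65%, against 1.94%). Alu elements, which are GC-rich SINEs, accounted for 20 (5.90%), against 23 of all 926 strong peaks (2.48%). By class there were 1 of the 405 WRE peaks and 2 of the 107 Helper peaks, a difference that was not tested. The 20 Alu peaks had a median score of 118, near the limit of 100, beside 162 for all motif-less strong peaks. Their median GC content was 50.1%, 17 held a short Helper site, and 7 were found at 9 h of dnTCF1EWT and 1 at 2 h of dnTCF1Emut.

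Among the LTR elements, MER11B, an endogenous retroviral LTR, was annotated at ARHGAP32 (664.90), WDR5B (578.22) and TULP4 (140.26), with 6, 3 and 4 short Helper sites. All 3 were found at 9 h of dnTCF1EWT and 2 of them at 2 h of dnTCF1Emut. This family was picked out after its values had been seen. MER11B was also annotated at 2 of the 405 WRE peaks. Another LTR element, MER4E, was annotated at 5 of the 339 peaks and 1 of the 405 WRE peaks. All 5 motif-less MER4E peaks were found at 2 h of dnTCF1Emut and 2 at 9 h of dnTCF1EWT, with a median of 0 short Helper sites. MER11C was annotated at 2 of the 339 peaks, with 1 found at 9 h of dnTCF1EWT and 0 at 2 h of dnTCF1Emut. The wider ERVK group, to which the annotation assigns MER11B, held 5 of the 339 peaks (1.47%) and 16 of the 405 WRE peaks (3.95%). A total of 18 of the 339 peaks (5.31%) had a dnTCF1EWT 2 h peak with a WRE or a Helper site within 10 kb. That is close to the 47 of all 926 strong peaks (5.08%). Within 1 kb there were 8 (2.36%), against 15 of the 926 (1.62%).

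Genes of the Wnt pathway and related lists were nearest to few of the peaks. Of the 339, 14 (4.13%) had a nearest gene in one of the 6 lists, close to the 43 of all 926 strong peaks (4.64%). The nearest gene stands for position only, since a distal peak can act on another gene. Among 34 Wnt targets and feedback regulators, 4 genes had 5 peaks. TCF7L2, the main TCF of the colon epithelium, had a peak in intron 4 (chr10:114741228-114741713) of 565.45 at 2 h and 142.36 at 9 h of dnTCF1EWT, with no overlapping dnTCF1Emut peak. TCF7L1, a mostly repressive TCF, had the same pattern, with 205.94 and 138.85. RNF43, a ubiquitin ligase that removes Frizzled receptors, had a peak of 133.84 in intron 2 and 72.31 with dnTCF1Emut. The T-box gene TBX3 had 2, of 224.40 and 116.92, the second found with dnTCF1Emut at 2 h (59.45).

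Of 56 Wnt ligands, receptors and transducers, 3 were nearest to a peak. The ligand gene WNT16 had 207.53 at 2 h, 51.05 at 9 h and 90.87 with dnTCF1Emut, while AXIN1, the scaffold of the β-catenin destruction complex (201.34), and the receptor gene FZD7 (145.21) were in no other list. Of 31 BMP and TGF-beta genes there were 4: the BMP antagonist GREM1 (292.75), the activin subunit gene INHBB (227.91), the receptor gene TGFBR2 (152.45, and 177.81 with dnTCF1Emut at 2 h) and the ligand gene BMP4 (107.49). Of 29 genes of the early growth response there were 2, the ERK phosphatases DUSP5 (127.81) and DUSP6. The DUSP6 peak, in a CpG island 1692 bp upstream of the TSS with 71.1% GC and 10 short Helper sites, scored 111.89 at 2 h and 69.69 at 9 h. The lists of 25 cell cycle genes and 20 intestinal transcription factors had no such peak, with 3 and 4 among all strong peaks.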

How the data were processed

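ChIP-seq with anti-FLAG beads was measured in DLD-1 cells in 8 conditions, 6 of which have peak lists. Per the submitters' processing notes, the list headers and the study's methods, the authors used CASAVA 1.8.2, aligned reads to hg19 with Bowtie2 2.0.0, called peaks with MACS 1.3 on the pooled replicates of a condition, and annotated them with HOMER 3.16. The deposited peak score is the MACS score (−10 times the log10 of the p-value, lowest value 50.01) and is not scaled for depth, which is unknown. The deposited motif counts are counts of matches per peak, with opposite-strand matches within 8 bp merged, and the deposited GC values are a fraction of the peak sequence, given here in percent. The deposited BED files repeat positions and scores and were only checked against the annotated lists.

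The peaks and gene lists described were chosen with earlier results of these data known. Peaks were selected on a score of 100 or more and counts of 0 for both motifs. Recovery was overlap by at least 1 base; with several overlapping peaks the highest score was taken. Fisher's exact test, two-sided, was run in R 4.3.3 between classes (exact stratified tests for score, GC content and length), with Benjamini-Hochberg adjustment over 15 comparisons and a threshold of 0.05. The tests were first tried on simulated data. Shares carry 95% Wilson intervals (SciPy 1.17.1). P-values compare peaks of these lists, not replicate experiments. The comparisons by short Helper count, and counting copies of 1 locus once, were added after seeing the data. Named were the 10 highest peaks, the 8 highest within 2 kb of a TSS, 5 each by 9 h score in both proteins' lists, by uninduced overlap and by short Helper count, those nearest a listed gene, and 4 at the limit. The other peaks named were chosen after their values were seen. Nascent RNA data of the study were not used here.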

Additional observations from a re-analysis of the deposited data

How the results depend on the processing

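Of 163 values recomputed under alternative settings, 136 kept their direction and their side of the threshold, or stayed within the spread for counts. All settings without chromosome Y, without uninduced peaks and with copies of 1 locus counted once are among these. With a score of 67 or more there were 969 motif-less peaks, and 186 with 150 or more. At 67, the odds ratio against WRE peaks became 0.467 for recovery at 9 h of dnTCF1EWT, 0.357 at 9 h of dnTCF1Emut and 3.24 for repeats, all past the threshold, and turned to 0.842 for short Helper sites; recovery with dnTCF1Emut at 2 h against Helper peaks fell short at 1.33. Within the motif-less peaks at 67, having a short Helper site went past the threshold at 9 h of dnTCF1EWT (1.81) and fell short with dnTCF1Emut at 2 h (0.738). At 150, recovery at 9 h of dnTCF1EWT against Helper peaks (0.647), recovery with dnTCF1Emut at 2 h against WRE peaks (0.661) and repeats against Helper peaks (1.56) fell short, and repeats against WRE peaks turned to 0.789. In strata of score, recovery at 9 h of dnTCF1EWT (0.588) and repeats (1.89) against Helper peaks fell short and short Helper sites went past the threshold at 1.56, as they did in strata of length (1.61). In strata of GC, recovery at 9 h of dnTCF1EWT (0.659), a TSS within 2 kb (0.391) and repeats (1.51) against Helper peaks fell short, and recovery with dnTCF1Emut at 2 h turned to 0.872. Within the motif-less peaks in those strata, having a short Helper site gave 0.915 at 9 h of dnTCF1EWT, a reversal. It gave 0.920 with dnTCF1Emut at 2 h, and neither was past the threshold. The split at 2 sites, a description only, gave 1.63 at 9 h of dnTCF1EWT and 0.470 with dnTCF1Emut at 2 h. With an overlap of 50% of both peaks, the median log2 score ratios became 0.99, 0.83 and 1.58 at 9 h of dnTCF1EWT and at 2 h and 9 h of dnTCF1Emut. Beyond the strata themselves, the causes were not tested. Uninduced recovery against Helper peaks gave no finite odds ratio at a limit of 150. No paired analysis was possible because each condition has 1 list. The depth behind the lists is unknown, so a peak missing from a list may be one that its library could not show.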
